A study of Mus musculus with 12 samples.

Results

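Cathepsins are the proteases of endosomes and lysosomes, and this account follows 10 genes of that system in cDC1, or type 1 conventional dendritic cells, a population best known for cross-presenting captured antigen to CD8 T cells. The members were taken as a named list: the cathepsin genes Ctss, Ctsb, Ctsd, Ctsl, Ctsh, Ctsc, Ctsz and Ctsa, together with Lgmn (legumain) and Ifi30 (the thiol reductase GILT). All 10 were among the 19938 genes measured, each by 1 probe set. In an antigen-presenting cell these enzymes work in sequence: GILT opens disulfide bonds, endoproteases cut the unfolded protein and the invariant chain that blocks class II molecules, and exopeptidases trim the fragments. Many cathepsins are made as inactive precursors that need an acid compartment or another protease to mature. How much they degrade is known to matter in dendritic cells, since antigen can be cut into presentable peptides or destroyed.

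The cells came from naive C57BL/6 mice, all CD40fl/fl, meaning that both copies of Cd40 carried loxP sites. The 4 groups had 3 arrays each: SDLN_Xcr1Cre+ and SDLN_Xcr1++, sorted from skin-draining lymph nodes, and SPL_Xcr1Cre+ and SPL_Xcr1++, sorted from spleen. Mice labelled Xcr1Cre+ carried 1 allele of Cre driven from Xcr1, a gene that marks cDC1, and mice labelled Xcr1++ carried none. Per the labels' protocols the sorted cells were B220 and Sirpa negative, XCR1 positive and high in MHC class II, with intermediate CD11c for the migratory lymph node cells and high CD11c for the spleen cells, so tissue, migratory state and sort gate cannot be told apart. Age and sex are not given in the sources used here, and no label ties a replicate to its own animal, so that the p-values cover the spread between these samples, which may be technical.

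The arrays had median intensities of 66.1 to 74.4, and 57.6% to 61.0% of genes lay above the background, which was set on each array at the 95th percentile of 1015 olfactory receptor genes. All 10 members lay above it on all 12 arrays. Replicate 1 arrays of all 4 groups stood apart from the others on the second principal component, which held 11.2% of the variance, against 79.5% for the first, which parted the tissues. Cd40, the gene that the cross targets, went against the labels on the replicate 3 arrays: array by array, the Xcr1Cre+ over Xcr1++ ratio in lymph node was 0.668 for replicate 1, 0.5 for replicate 2 and 2.18 for replicate 3, and the same ratio among spleen arrays was 0.638, 0.407 and 1.84 in that order. A genotype named below is what an array was labelled, no more. Of the 10 cDC1 marker genes, all were above background on every array, while 8 were lower in lymph node cells, among them Clec9a, Tlr3 and Wdfy4, and Batf3 was higher. Xcr1 itself averaged 242 in SDLN_Xcr1Cre+ and 251 in SDLN_Xcr1++, against 2913 in SPL_Xcr1Cre+ and 3250 in SPL_Xcr1++. Of 8 genes of mature migratory dendritic cells, such as Fscn1, Ccl22 and Socs2, several were higher in lymph node than in spleen cells. These were 7 genes among arrays labelled Xcr1Cre+ and 6 among arrays labelled Xcr1++.

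Promoter windows from RefSeq (build GRCm38.p6, from 250 bases before to 50 after each transcript start) were matched for 8 of the 10 genes and not for Ctsb and Ctsh. They were searched on both strands for 6 short motifs. The letters TCACGTGA, the core of the CLEAR element through which TFEB and its relatives are known to act on lysosomal genes, occurred in the windows of Ctsa, Ctsd and Ifi30, that is 3 of 8 genes, against 1.12% of the 27025 genes with a window. The stretches that hold it are shown because these 3 genes did not all differ in the same direction between the tissues, and Ctss is shown with the only interferon regulatory factor (IRF) match among the members. Each runs 5′ to 3′ on the gene's strand, with TCACGTGA, or GAAANNGAA for Ctss, in capitals.
Ctsa: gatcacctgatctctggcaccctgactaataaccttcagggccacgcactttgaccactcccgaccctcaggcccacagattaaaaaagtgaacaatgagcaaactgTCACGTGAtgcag
Ctsd: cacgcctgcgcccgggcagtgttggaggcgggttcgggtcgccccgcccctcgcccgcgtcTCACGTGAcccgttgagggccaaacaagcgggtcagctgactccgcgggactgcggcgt
Ifi30: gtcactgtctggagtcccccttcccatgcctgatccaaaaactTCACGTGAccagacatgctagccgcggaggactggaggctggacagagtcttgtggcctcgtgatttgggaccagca
Ctss: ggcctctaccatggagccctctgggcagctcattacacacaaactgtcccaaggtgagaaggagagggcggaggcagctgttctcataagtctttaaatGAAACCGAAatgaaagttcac

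Counting the last base before the transcript start as -1, the Ctsa stretch is chr2:164833653-164833772 on the plus strand, with the core at -13 and a further copy at 4 bases after the start. The Ctsd stretch is chr7:142387868-142387987 on the minus strand, with the core at -99. The Ifi30 stretch is chr8:70766784-70766903 on the minus strand, with the core at -197. The Ctss stretch is chr3:95526666-95526785 on the plus strand, and its match begins at -21; GAAANNGAA was present in 9.76% of all genes with a window. The shorter E-box core CACGTG, which every TCACGTGA contains, was found in 5 of the 8 genes, adding Lgmn and Ctsl, against 8.09% of genes. GAGGAAG, an ETS motif, was present for Ctss and Ctsc (15.36% of genes), GGGNNTTCC, an NF-kB motif, for Ctsz and Lgmn (6.58%), and TTCNNNGAA, a STAT motif, for Ctsc (9.55%). A match describes these letters in this window and does not show that a factor binds there.

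Between the tissues, most of the members were higher in lymph node cDC1, and Ctsc and Ctsa were much lower. In limma, 8 of the 10 passed an adjusted p of 0.05 among arrays labelled Xcr1Cre+, 6 of them higher and 2 lower, in a comparison that called 28.3% of all genes, 13.1% as higher and 15.2% as lower. Among arrays labelled Xcr1++, 9 passed, 7 higher and 2 lower, where 26.1% of all genes were called, 12.9% as higher and 13.2% as lower. Among the 10430 genes above background on all 12 arrays, a closer match to these expressed genes, the share called was 41.2% for Xcr1Cre+ and 39.5% for Xcr1++. The median log2 difference of the members was 0.53 for Xcr1Cre+ and 0.64 for Xcr1++, against 0.07 and 0.03 over all genes. Within a label, the lymph node and spleen arrays of 9 members did not overlap, as for 41.1% of all genes for Xcr1Cre+ and 36.3% for Xcr1++. For the same 9 members the 6 lymph node arrays did not overlap the 6 spleen arrays, as for 25.8% of all genes and 39.5% of those above background throughout. Intensities of different probe sets were not set against each other.

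The counts depended on which arrays were used. Without the 4 replicate 1 arrays, 9 members were called under each genotype label, where 38.5% of all genes were called for Xcr1Cre+ and 34.6% for Xcr1++. Without the 4 replicate 3 arrays, whose Cd40 goes against the labels, 5 were called for Xcr1Cre+ and 4 for Xcr1++, against 15.5% and 14.4% of all genes. Without the replicate 2 arrays 5 were called under each label, against 15.5% of all genes under each. Each of these fits, also that without replicate 1, left 2 arrays a group, where the spread is poorly known. Their counts differed by which replicate was left out. With the replicate number as a block, 9 members were called under each label, where 41% of all genes were called for Xcr1Cre+ and 36% for Xcr1++. The block without the replicate 3 arrays also called 9, against 31.3% and 27.6% of all genes. Ignoring the genotype label altogether, an alternative chosen after seeing the data, the same 9 members passed with 6 arrays per tissue, and 38.6% of all genes were called.

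**Figure D1:**
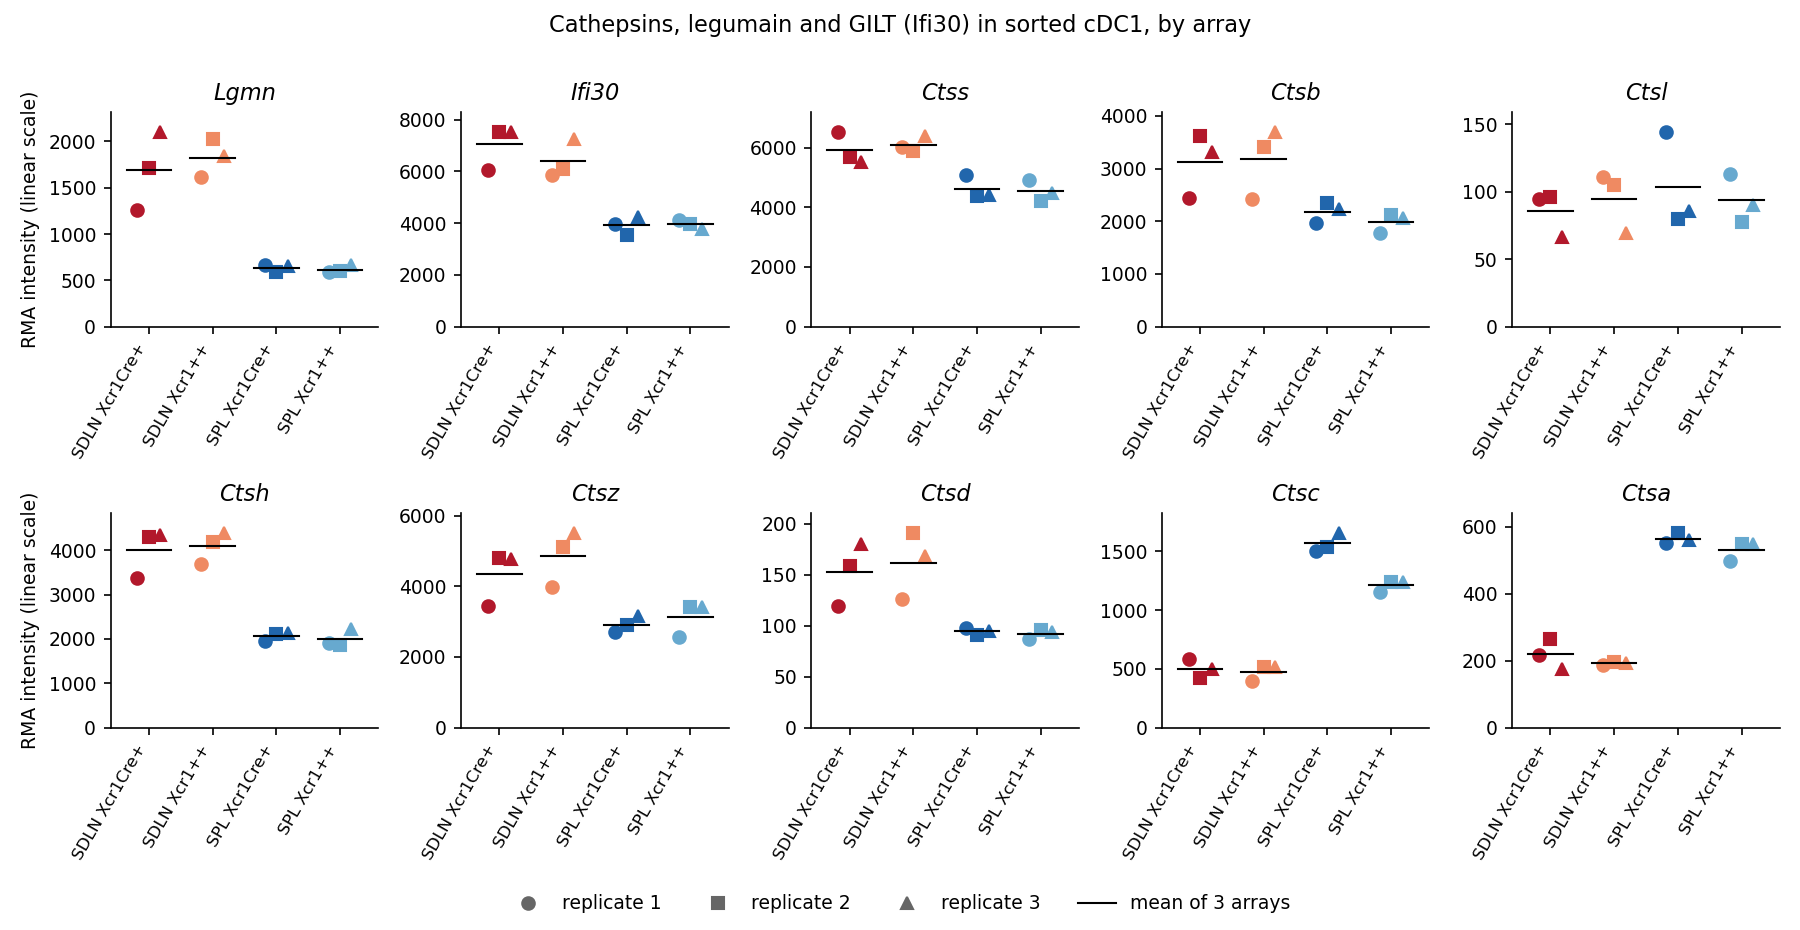
RMA intensity on the linear scale (vertical axis, from 0) of the 10 genes on each of the 12 arrays. Symbols give the replicate number, and black lines the mean of the 3 arrays of a group. Lgmn shows the largest rise as a ratio, with lymph node arrays at 1264 to 2107 against spleen arrays at 585 to 668, and Ctsc and Ctsa lie lower in lymph node.

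Legumain, the asparaginyl endopeptidase that cuts after asparagine and helps several cathepsins to mature, had the largest rise of the 10. Lgmn (probe set 10402268) measured 1264, 1715 and 2107 in SDLN_Xcr1Cre+ and 1611, 2023 and 1844 in SDLN_Xcr1++, against 668, 586 and 654 in SPL_Xcr1Cre+ and 585, 597 and 665 in SPL_Xcr1++. Every lymph node array was thus above every spleen array, with a wider spread among the lymph node arrays. The log2 difference was 1.39 for Xcr1Cre+ (SE 0.18, limma adjusted p = 4.03e-05) and 1.56 for Xcr1++ (SE 0.18, limma adjusted p = 1.39e-05), with n = 3 per group as in all fits below. Only 2.70% of all genes had a higher mean of the 2 tissue differences.

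Ifi30, the interferon-inducible reductase that unfolds disulfide-bonded antigens, was also higher in lymph node cells. Its intensity (probe set 10579347) was 6056, 7523 and 7538 in SDLN_Xcr1Cre+ and 5874, 6089 and 7269 in SDLN_Xcr1++, against 3965, 3557 and 4221 in SPL_Xcr1Cre+ and 4129, 3960 and 3765 in SPL_Xcr1++. The tissues did not overlap, and the highest spleen array stayed well below the lowest lymph node array. On the log2 scale the difference was 0.84 for Xcr1Cre+ (SE 0.13, limma adjusted p = 0.000177) and 0.69 for Xcr1++ (SE 0.13, limma adjusted p = 0.000912). The Xcr1++ call was lost without the replicate 3 arrays, at a limma adjusted p of 0.0844. With the replicate block both calls held, at a limma adjusted p of 4.66e-06 for Xcr1Cre+ and 3.07e-05 for Xcr1++.

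Among the papain-family endoproteases Ctss, Ctsb and Ctsl the differences were smaller than that of Lgmn. Cathepsin S, the enzyme that removes the invariant chain from class II molecules in dendritic cells and B cells, had the smallest called rise. Ctss (probe set 10494271) measured 6545, 5696 and 5526 in SDLN_Xcr1Cre+ and 6027, 5882 and 6403 in SDLN_Xcr1++, against 5078, 4379 and 4407 in SPL_Xcr1Cre+ and 4924, 4209 and 4478 in SPL_Xcr1++. The tissues did not overlap, although the gap between the lowest lymph node array and the highest spleen array was narrow. Lymph node minus spleen came to a log2 difference of 0.36 for Xcr1Cre+ (SE 0.12, limma adjusted p = 0.0324) and 0.43 for Xcr1++ (SE 0.12, limma adjusted p = 0.0123). The Xcr1Cre+ call did not hold in a fit of the compared groups alone (limma adjusted p = 0.0794), after a repeated quantile normalization (0.0549) or after centring on array medians (0.0527). It was also lost without SPL_Xcr1Cre+ replicate 2 or 3 or SDLN_Xcr1Cre+ replicate 1 (limma adjusted p of 0.123, 0.119 and 0.107), and the Xcr1++ call was lost without SPL_Xcr1++ replicate 2 (0.0637) or SDLN_Xcr1++ replicate 3 (0.05). With the replicate block both calls held, at a limma adjusted p of 0.000537 for Xcr1Cre+ and 0.000113 for Xcr1++.

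Cathepsin B, a cysteine protease that can also remove dipeptides from the C-terminus, was higher on every lymph node array than on any spleen array. In the main fit the difference passed the threshold under 1 label. Ctsb (probe set 10415844) measured 2435, 3620 and 3312 in SDLN_Xcr1Cre+ and 2415, 3402 and 3701 in SDLN_Xcr1++, against 1968, 2354 and 2231 in SPL_Xcr1Cre+ and 1783, 2120 and 2062 in SPL_Xcr1++. In lymph node the replicate 1 array was the lowest under both labels and lay just above the highest spleen array. For Xcr1Cre+ the log2 difference was 0.50 (SE 0.18) and was not called (limma adjusted p = 0.0597), and for Xcr1++ it was 0.65 (SE 0.18, limma adjusted p = 0.0166). With the replicate block the Xcr1Cre+ difference passed, at a limma adjusted p of 0.000445, as it did without the replicate 1 array of SDLN_Xcr1Cre+ (0.0135) or of SDLN_Xcr1++ (0.0273). The Xcr1++ call was lost without SPL_Xcr1++ replicate 1 (0.0615) or SDLN_Xcr1++ replicate 2 or 3 (0.0683 and 0.0832).

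Cathepsin L, which degrades the invariant chain in mouse thymic cortical epithelium, was the 1 member with no call. Ctsl (probe set 10410124) measured 94.4, 96.1 and 66.2 in SDLN_Xcr1Cre+ and 110.7, 104.9 and 69.3 in SDLN_Xcr1++, against 144.6, 79.9 and 85.8 in SPL_Xcr1Cre+ and 113.1, 77.5 and 90.4 in SPL_Xcr1++. The 4 groups overlapped throughout, and these values lay close to the background of 50.1 to 63.9. In log2 terms the difference between tissues was -0.24 for Xcr1Cre+ (95% confidence interval -0.77 to 0.28, limma adjusted p = 0.51) and 0.01 for Xcr1++ (95% confidence interval -0.52 to 0.53, limma adjusted p = 0.991). Ctsl also had the widest spread within groups of the 10, with an SD of 0.36 on the log2 scale.

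The exopeptidases went both ways. Cathepsin H, an aminopeptidase, was higher in lymph node cells by close to a doubling. Ctsh (probe set 10587733) measured 3382, 4302 and 4344 in SDLN_Xcr1Cre+ and 3703, 4190 and 4404 in SDLN_Xcr1++, against 1948, 2122 and 2142 in SPL_Xcr1Cre+ and 1904, 1872 and 2217 in SPL_Xcr1++. All lymph node arrays were above all spleen arrays. The log2 difference was 0.95 for Xcr1Cre+ (SE 0.14, limma adjusted p = 0.000116) and 1.04 for Xcr1++ (SE 0.14, limma adjusted p = 5.19e-05).

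Cathepsin Z, a carboxypeptidase also called cathepsin X, rose by a smaller amount. Ctsz (probe set 10490212) measured 3432, 4805 and 4765 in SDLN_Xcr1Cre+ and 3986, 5102 and 5519 in SDLN_Xcr1++, against 2697, 2900 and 3147 in SPL_Xcr1Cre+ and 2573, 3421 and 3422 in SPL_Xcr1++. The lowest lymph node array and the highest spleen array were nearly equal. On the log2 scale the difference was 0.56 for Xcr1Cre+ (SE 0.17, limma adjusted p = 0.0267) and 0.63 for Xcr1++ (SE 0.17, limma adjusted p = 0.014). Centring on array medians ended the Xcr1Cre+ call (limma adjusted p = 0.0766), as did leaving out replicate 1 or 2 of SPL_Xcr1Cre+ (0.0777 and 0.0712) or replicate 2 or 3 of SDLN_Xcr1Cre+ (0.0954 and 0.102). The Xcr1++ call was lost without SPL_Xcr1++ replicate 1 (0.066) or SDLN_Xcr1++ replicate 2 or 3 (0.0542 and 0.0689). Both calls held with the replicate block, at a limma adjusted p of 3.08e-05 for Xcr1Cre+ and 9.9e-06 for Xcr1++.

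Cathepsin C, the dipeptidyl peptidase that activates granule serine proteases such as granzymes in lymphocytes and granulocytes, fell the most for Xcr1Cre+, while for Xcr1++ Ctsa fell more. Ctsc (probe set 10554789) measured 583.0, 417.7 and 496.5 in SDLN_Xcr1Cre+ and 399.4, 515.2 and 512.0 in SDLN_Xcr1++, against 1504, 1539 and 1661 in SPL_Xcr1Cre+ and 1155, 1241 and 1236 in SPL_Xcr1++. No lymph node array came near the lowest spleen array. Lymph node minus spleen came to a log2 difference of -1.66 for Xcr1Cre+ (SE 0.16, limma adjusted p = 2.33e-06) and -1.36 for Xcr1++ (SE 0.16, limma adjusted p = 1.66e-05).

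Cathepsin A is a serine carboxypeptidase that also protects beta-galactosidase and neuraminidase 1 within lysosomes. Ctsa (probe set 10478594) measured 218.2, 264.5 and 176.1 in SDLN_Xcr1Cre+ and 187.8, 196.4 and 194.0 in SDLN_Xcr1++, against 552.0, 582.8 and 559.8 in SPL_Xcr1Cre+ and 497.6, 548.4 and 548.2 in SPL_Xcr1++. All lymph node arrays were far below all spleen arrays. It fell by 1.38 on the log2 scale for Xcr1Cre+ (SE 0.15, limma adjusted p = 8.49e-06) and by 1.46 for Xcr1++ (SE 0.15, limma adjusted p = 5.3e-06).

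Cathepsin D is the aspartic endoprotease of lysosomes. Ctsd (probe set 10569319) measured 119.7, 158.5 and 179.9 in SDLN_Xcr1Cre+ and 125.7, 191.3 and 167.9 in SDLN_Xcr1++, against 97.7, 90.8 and 95.1 in SPL_Xcr1Cre+ and 86.6, 95.5 and 93.7 in SPL_Xcr1++. The spleen arrays lay within a narrow band below all lymph node arrays, among which replicate 1 was the lowest. This corresponded to a log2 difference of 0.67 for Xcr1Cre+ (SE 0.17, limma adjusted p = 0.00765) and 0.79 for Xcr1++ (SE 0.17, limma adjusted p = 0.00253). Both calls were lost without the replicate 3 arrays, at limma adjusted p of 0.159 for Xcr1Cre+ and 0.0557 for Xcr1++, and without the replicate 2 arrays, at 0.124 and 0.0804. They held with the replicate block, at a limma adjusted p of 0.00101 for Xcr1Cre+ and 0.00027 for Xcr1++.

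**Figure D2:**
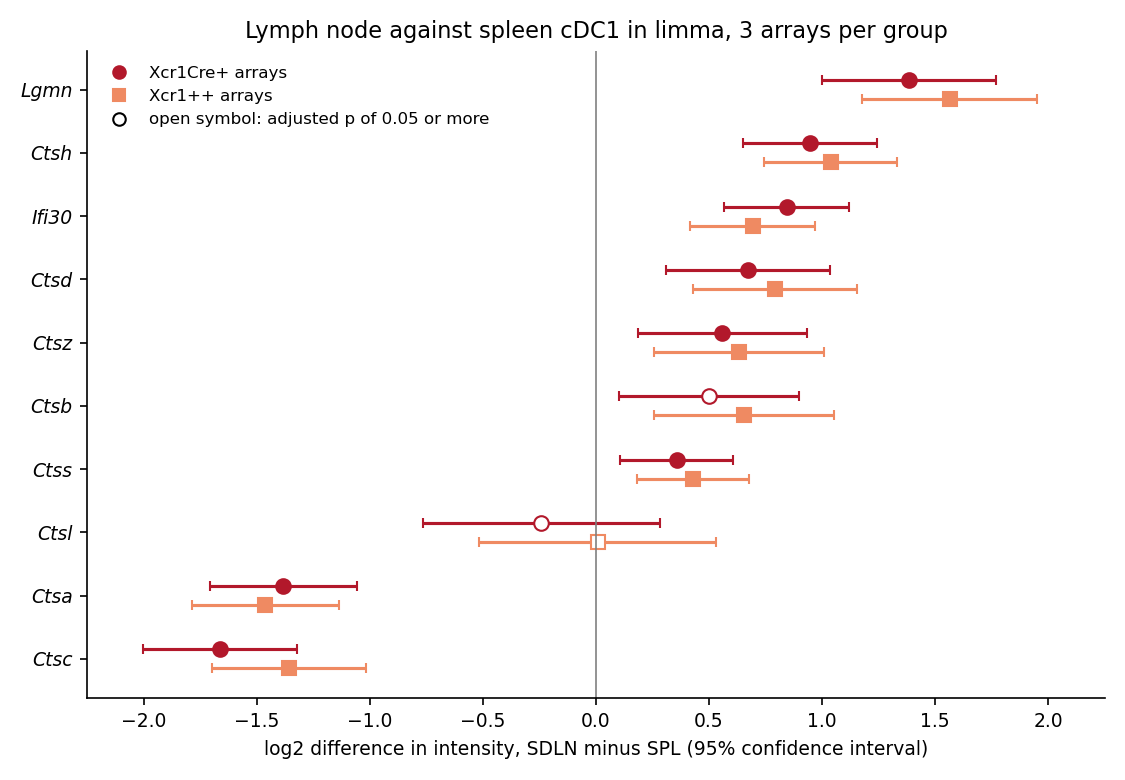
Log2 difference in intensity (horizontal axis), lymph node minus spleen, for each of the 10 genes, with 95% confidence intervals from limma. Circles are arrays labelled Xcr1Cre+ and squares those labelled Xcr1++; open symbols did not pass an adjusted p of 0.05. Lgmn lies farthest to the right at 1.39 and 1.56, Ctsc and Ctsa lie below -1.3, and Ctsl spans 0.

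In bulk RNA of sorted cells, a change in the share of a cell type and a change in RNA per cell cannot be told apart. Among 18 measured macrophage and monocyte markers, Adgre1, Mertk, Cd163 and Mrc1 were at background on all 12 arrays. Others, such as Csf1r, Marco, Spic, Cx3cr1, Timd4 and Vcam1, were above background on all 12. On all 3 arrays of a group, 9 were above it in SDLN_Xcr1Cre+, 10 in SDLN_Xcr1++, 10 in SPL_Xcr1Cre+ and 11 in SPL_Xcr1++. The summed intensity of the list was 1601 to 1876 in SDLN_Xcr1Cre+ and 1704 to 1855 in SDLN_Xcr1++, against 3320 to 5578 in SPL_Xcr1Cre+ and 3388 to 5746 in SPL_Xcr1++. Cd14 and Lyz2, which other myeloid cells also express, were the lower ones with the largest differences. Of the list, 1 gene was higher and 5 lower for Xcr1Cre+, and 1 was higher and 4 lower for Xcr1++. The gene that was higher was Vcam1, and C1qa, C1qb, C1qc and Siglec1 were not called under both labels. The summed intensity does not measure the share of macrophages in a sample. The part of this list in the higher members and in the lower Ctsc and Ctsa was not tested. Among 7 measured T cell genes, 4 were higher in lymph node samples under each label, and Cd5, joined by Cd4 for Xcr1Cre+, was lower, with Cd3g at a log2 difference of 1.55 for Xcr1Cre+ and 1.77 for Xcr1++; the summed intensity was 946 to 1827 in SDLN_Xcr1Cre+ and 1103 to 1708 in SDLN_Xcr1++, against 865 to 1034 in SPL_Xcr1Cre+ and 938 to 972 in SPL_Xcr1++. Of 7 Langerhans cell and keratinocyte genes, 3 were higher for Xcr1Cre+ and 2 for Xcr1++, and 1 was lower under each label. Epcam was higher under both, at mean intensities of 81.4 in SDLN_Xcr1Cre+ and 79.4 in SDLN_Xcr1++ against 33.6 in SPL_Xcr1Cre+ and 37.4 in SPL_Xcr1++. The keratinocyte keratin gene Krt14 was also higher under both, at 51.3 in each lymph node group against 30.2 in SPL_Xcr1Cre+ and 34.8 in SPL_Xcr1++, and was above background on 1 of 12 arrays. Krt10 was higher for Xcr1Cre+, and Cd207 was lower under both.

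Single genes of other lists differed too. Of 7 cDC2 genes, Esam was higher, with log2 differences of 1.63 for Xcr1Cre+ and 1.87 for Xcr1++, and Clec12a had -2.11 for Xcr1Cre+ and -2.15 for Xcr1++; the summed intensity was 857 to 990 in SDLN_Xcr1Cre+ and 716 to 1030 in SDLN_Xcr1++, against 2000 to 2084 in SPL_Xcr1Cre+ and 1955 to 2087 in SPL_Xcr1++. Of 5 measured plasmacytoid dendritic cell genes, 1 was higher and 1 lower for Xcr1Cre+, and 2 were higher and 1 lower for Xcr1++. Tcf4 was higher under both labels and Bst2 for Xcr1++. Ccr9 was the lower one, with -2.60 for Xcr1Cre+ and -2.67 for Xcr1++. Their summed intensity was 2648 to 3571 in SDLN_Xcr1Cre+ and 2911 to 3515 in SDLN_Xcr1++. In spleen it was 2235 to 2908 in SPL_Xcr1Cre+ and 2070 to 2765 in SPL_Xcr1++. The B cell gene Ms4a1 had -2.53 for Xcr1Cre+ and -2.20 for Xcr1++, and Pecam1, from the stromal and endothelial list, had -3.18 for Xcr1Cre+ and -2.67 for Xcr1++. No NK cell, neutrophil or erythroid gene measured was called by limma under either label, where 1 NK cell gene had an unadjusted p under 0.05 for Xcr1++ and none otherwise. The part of all these marker genes in the tissue differences was not tested.

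Within groups, several members deviated together and by replicate number. Ctsb and Ctsz were lowest on the replicate 1 array in 4 of 4 groups, and Ctsh, Ctsd, Lgmn, Ctsc and Ctsa in 3 of 4. Ctss and Ctsl went the other way, with replicate 1 the highest array in 3 of 4 groups. Over the 12 arrays, deviations from the group means correlated at 0.928 between Ctsb and Ctsz, 0.898 between Ctsd and Lgmn and 0.837 between Ctsb and Ctsh, against -0.645 between Ctss and Ctsz. These are descriptions over arrays that share a replicate number. Ctsc and Ctsa, the 2 members that fell, correlated at 0.953 over all 12 arrays, which the tissue difference sets, and at -0.227 in their deviations from the group means.

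By the genotype labels, no member was called in either tissue. No gene of the 19938 was called in limma in lymph node or in spleen (0% called in each), where 402 and 357 genes had an unadjusted p under 0.05; with the replicate block 0 were called in each and 1360 and 886 had such a p. With array weights limma called 2 genes in lymph node and 51 in spleen, none of them a member. Ctsc in spleen was the 1 member with an unadjusted p under 0.05 in the unblocked fit: its arrays labelled Xcr1Cre+, at 1504 to 1661, were all above those labelled Xcr1++, at 1155 to 1241. The log2 difference between the labels was 0.37 (SE 0.16, 95% confidence interval 0.03 to 0.71, limma unadjusted p = 0.0346, adjusted p = 1). With the replicate block its unadjusted p was 0.0131 (limma adjusted p = 0.983), and Ctsz in lymph node, with a log2 difference of -0.17, then had an unadjusted p of 0.0372 (limma adjusted p = 0.727). For all 3 replicate numbers, Ctsc, Ctsb and Ctsa in spleen were higher in Xcr1Cre+. In lymph node Ifi30 was higher and Ctsz and Ctsl were lower in Xcr1Cre+ for all 3. The other members changed direction between replicate numbers in each tissue. The share of all genes with 1 direction for all 3 numbers was not computed, so no genotype effect is read from these directions. Cd40 went against the labels on number 3. Ctsa in spleen also did not overlap, at 552.0 to 582.8 for Xcr1Cre+ and 497.6 to 548.4 for Xcr1++, with a log2 difference of 0.09 (SE 0.15, limma adjusted p = 1). Groups did not overlap for 7.64% of all genes in spleen and 4.72% in lymph node, where none of the members was free of overlap.

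The remaining genotype differences were small beside their intervals. In lymph node they lay between -0.17 for Ctsz (95% confidence interval -0.55 to 0.20) and 0.17 for Ctsa (95% confidence interval -0.16 to 0.49). In spleen, leaving out Ctsc, they lay between -0.10 for Ctsz (95% confidence interval -0.47 to 0.28) and 0.14 for Ctsb (95% confidence interval -0.26 to 0.53). The difference of the genotype effect between tissues was called for 0 members and 0 of all genes, with 326 genes at an unadjusted p under 0.05, and was widest for Ctsc at -0.31 (95% confidence interval -0.79 to 0.18). Several of these intervals, such as those of Ctsz and Ctsa in lymph node, leave room for shifts of a size like that of the Ctss tissue difference, and they rest on labels that Cd40 does not follow on every array. The order of levels was therefore the same kind for 9 members: both lymph node groups on one side, both spleen groups on the other, and neighbours of 1 tissue not separated by the test.

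**Figure D3:**
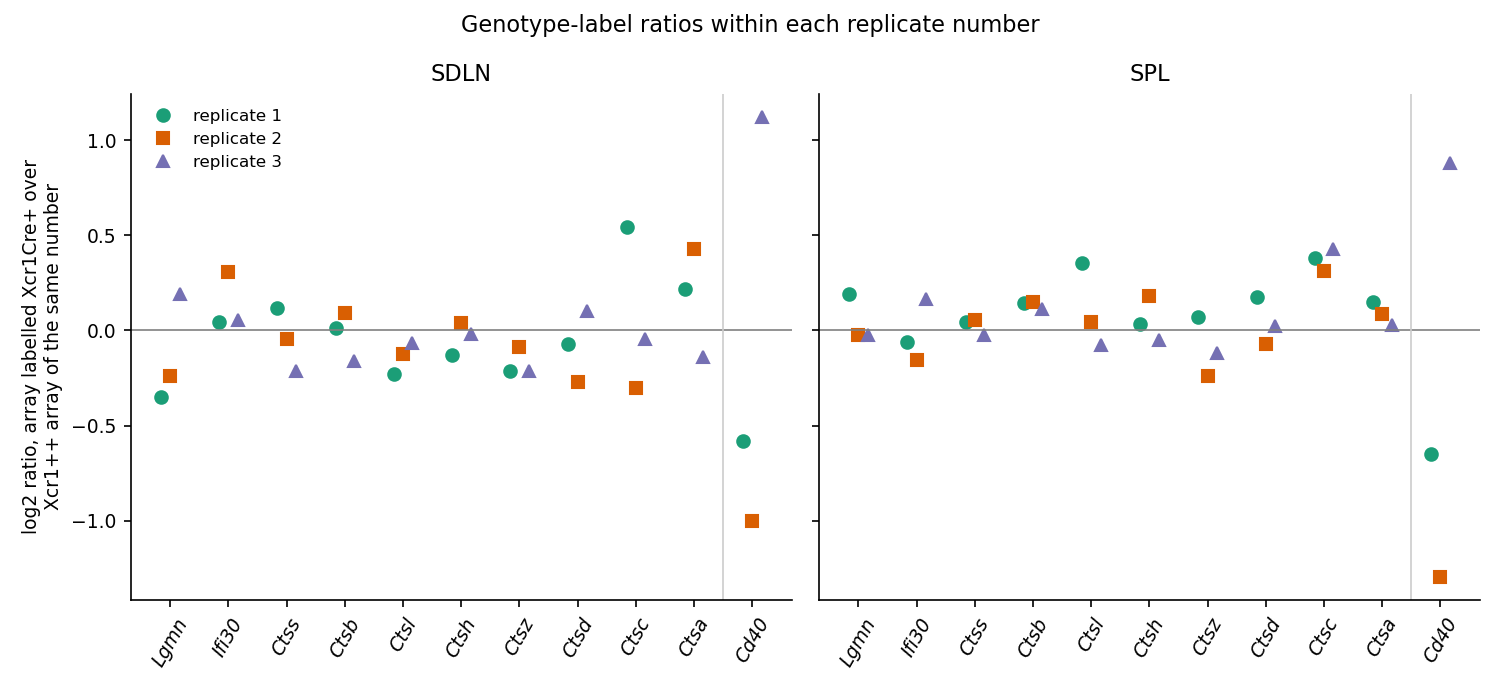
Log2 ratio (vertical axis) of the array labelled Xcr1Cre+ over the Xcr1++ array of the same replicate number, for the 10 genes and Cd40, in lymph node (left) and spleen (right). Symbols give the replicate number. Ctsc in spleen is above 0 for all 3 numbers, and Cd40 is above 0 for replicate 3 and below 0 for replicates 1 and 2 in both tissues.

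The other genes of the lysosome went in both directions. These lists, like the members, were drawn up with earlier results of these data known, and the percentages called over all genes given above apply to them too. Of 13 other measured cathepsins, Ctse, an aspartic protease, was lower in lymph node cells at log2 differences of -1.86 for Xcr1Cre+ and -1.54 for Xcr1++ (limma adjusted p = 7.73e-06 and 4.68e-05). Ctsw was higher for Xcr1Cre+ at 0.40 (limma adjusted p = 0.027) and not called for Xcr1++ at 0.28 (limma adjusted p = 0.123). The other 11 were not called, and Cts6, Cts7, Cts8, Ctsg, Ctsj and Ctsq were at background on all 12 arrays. The list's median log2 difference was 0.18 for Xcr1Cre+ and 0.07 for Xcr1++.

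More protease inhibitors were higher than lower in lymph node cells. Of 10 measured, 6 were higher and 0 lower for Xcr1Cre+, and 5 were higher and 1 lower for Xcr1++, the lower one being Stfa2, at background. Serpinb1a, an inhibitor of neutrophil elastase and cathepsin G, had mean intensities of 2380 in SDLN_Xcr1Cre+ and 2180 in SDLN_Xcr1++, against 140 in SPL_Xcr1Cre+ and 162 in SPL_Xcr1++, a log2 difference of 4.15 for Xcr1Cre+ and 3.85 for Xcr1++. Cstb, the cytosolic cysteine protease inhibitor stefin B, rose by 1.82 for Xcr1Cre+ and 1.67 for Xcr1++, and Serpinb6b by 1.74 for Xcr1Cre+ and 1.60 for Xcr1++. Among those that rose, the serpins include inhibitors of serine proteases rather than of lysosomal cysteine cathepsins. Cst3, the secreted cathepsin inhibitor cystatin C, had log2 differences of -0.02 for Xcr1Cre+ and -0.06 for Xcr1++ and was not called. The median of the list was 0.92 for Xcr1Cre+ and 0.83 for Xcr1++.

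Other peptidases of the list were more often lower than higher. Of 9 measured, 2 were higher and 5 lower for Xcr1Cre+, and 2 were higher and 4 lower for Xcr1++. Scpep1, a serine carboxypeptidase of the same family as Ctsa, rose by 2.07 on the log2 scale for Xcr1Cre+ and 2.22 for Xcr1++, and Prcp, a prolylcarboxypeptidase, by 0.53 for Xcr1Cre+ and 0.49 for Xcr1++. Ctsa fell while Scpep1 rose, so the serine carboxypeptidases measured here went in both directions. Napsa, an aspartic protease, had log2 differences of -1.76 for Xcr1Cre+ and -1.77 for Xcr1++. Dpp7, a dipeptidyl peptidase of vesicles, had -1.46 for Xcr1Cre+ and -1.34 for Xcr1++. Dpp4, which acts at the cell surface, had -1.39 for Xcr1Cre+ and -1.22 for Xcr1++.

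Among the lysosomal lists, the largest falls were in enzymes that degrade lipids and sugars. Of 33 measured glycosidases, lipases and sulfatases, 4 were higher and 19 lower for Xcr1Cre+, and 5 were higher and 15 lower for Xcr1++, with list medians of -0.78 for Xcr1Cre+ and -0.40 for Xcr1++. Naaa, an acid amidase for N-acylethanolamines, averaged 365 in SDLN_Xcr1Cre+ and 337 in SDLN_Xcr1++, against 8040 in SPL_Xcr1Cre+ and 7920 in SPL_Xcr1++. Lipa, the lysosomal acid lipase, had log2 differences of -3.38 for Xcr1Cre+ and -3.44 for Xcr1++, and Ppt1, a palmitoyl-protein thioesterase, -3.06 for Xcr1Cre+ and -3.30 for Xcr1++. Acp2, a lysosomal acid phosphatase, was higher by 1.24 for Xcr1Cre+ and 1.74 for Xcr1++, and Gaa (acid alpha-glucosidase) and Idua (alpha-L-iduronidase) were also higher.

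Membrane proteins of the lysosome split, with 7 of 23 higher and 4 lower for Xcr1Cre+, and 9 higher and 4 lower for Xcr1++. Lamp1, a main glycoprotein of the lysosomal membrane, rose by 1.87 for Xcr1Cre+ and 1.91 for Xcr1++ on the log2 scale, Cd63, a tetraspanin, by 2.12 for Xcr1Cre+ and 1.75 for Xcr1++, and Laptm4b by 0.99 for Xcr1Cre+ and 0.90 for Xcr1++. Cd68 had -2.55 for Xcr1Cre+ and -2.44 for Xcr1++, and Slc15a3, a peptide and histidine transporter, -2.13 for Xcr1Cre+ and -2.46 for Xcr1++. Scarb2, the receptor that carries glucocerebrosidase to lysosomes, was lower under both labels, with -1.06 for Xcr1++.

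The proton pump that acidifies the compartment, the V-ATPase, had isoforms of one subunit that differed in opposite directions. Of 18 measured pump genes, 3 were higher and 3 lower for Xcr1Cre+, and 2 were higher and 3 lower for Xcr1++. Atp6v0a1 had mean intensities of 1350 in SDLN_Xcr1Cre+ and 1430 in SDLN_Xcr1++, against 332 in SPL_Xcr1Cre+ and 305 in SPL_Xcr1++, a log2 difference of 1.94 for Xcr1Cre+ and 2.20 for Xcr1++. Atp6v0a2 and Tcirg1, which encode other isoforms of the same membrane subunit, were lower: Tcirg1 averaged 460 in SDLN_Xcr1Cre+ and 466 in SDLN_Xcr1++, against 1460 in SPL_Xcr1Cre+ and 1510 in SPL_Xcr1++, and the log2 difference of Atp6v0a2 was -1.49 for Xcr1Cre+ and -1.44 for Xcr1++. Atp6v1b2 was higher by 1.05 for Xcr1Cre+ and 1.26 for Xcr1++, and Atp6ap2 had -0.84 for Xcr1Cre+ and -0.83 for Xcr1++. Atp6v0d2, called as higher for Xcr1Cre+, was at mean intensities under 20 in every group.

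Of 18 measured genes for sorting to the lysosome and its transcription, 4 were higher and 2 lower under each label. Gga2, an adaptor for mannose-6-phosphate receptors, was higher by 2.61 for Xcr1Cre+ and 2.49 for Xcr1++. Vps39, a subunit of the HOPS tether, was higher by 1.83 for Xcr1Cre+ and 2.08 for Xcr1++, and Gnptg, a subunit of the enzyme that starts the mannose-6-phosphate tag, by 1.19 for Xcr1Cre+ and 1.23 for Xcr1++. Nagpa, which uncovers that tag, had -1.07 for Xcr1Cre+ and -0.82 for Xcr1++. Of the factors that bind the CLEAR element, Mitf was called as lower under both labels but was above background on 5 of 12 arrays, with mean intensities of 39.5 in SDLN_Xcr1Cre+ and 43 in SDLN_Xcr1++, below the background, against 67.7 in SPL_Xcr1Cre+ and 73.3 in SPL_Xcr1++. Tfeb had 0.03 for Xcr1Cre+ and -0.02 for Xcr1++, and Tfe3 had 0.18 for Xcr1Cre+ and 0.34 for Xcr1++, neither called. Among 67 genes of the 4 lists of lysosomal peptidases, other hydrolases, membrane proteins and pump subunits that had a promoter window, 9 held TCACGTGA; of these 1 was higher under both labels, 3 were lower under both and 5 were neither. Of the 58 without it, 12 were higher under both, 17 lower under both and 29 neither. With only 9 genes holding it these shares cannot be told apart, and a relation of the motif to direction was not tested.

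**Figure D4:**
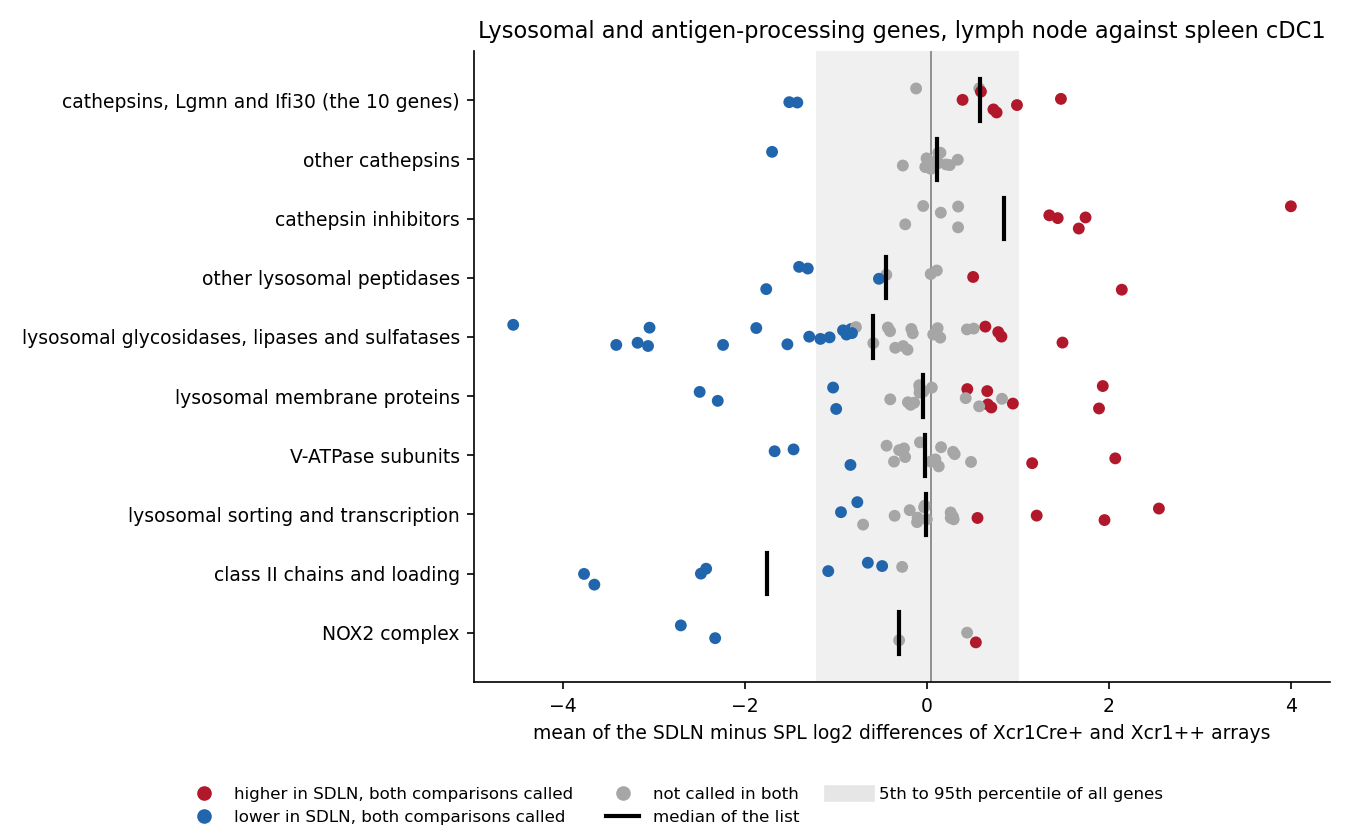
Mean of the 2 lymph node minus spleen log2 differences (horizontal axis) for each gene of 10 lists. Red and blue points were called as higher or lower under both genotype labels, grey points were not, black bars are list medians, and the shaded band holds the 5th to 95th percentile of all genes. The 10 genes followed here sit mostly right of 0 with 2 far to the left, inhibitors lie to the right, and the class II list lies to the left.

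RNA for the class II molecules whose peptides these proteases prepare was lower in lymph node cells, by unequal amounts. The protein was not measured here, and the cells were sorted as high in MHC class II. Of 8 measured class II chains and loading factors, 8 were lower for Xcr1Cre+ and 7 for Xcr1++, with list medians of -1.75 for Xcr1Cre+ and -1.74 for Xcr1++. The presenting chains fell less than these medians. Their means of the 2 tissue log2 differences were -0.27 for H2-Aa, -0.65 for H2-Eb1 and -1.08 for H2-Ab1, against -3.77 for Ciita. H2-Aa was not called under both labels. Ciita, the coactivator of class II transcription, averaged 85.4 in SDLN_Xcr1Cre+ and 93.8 in SDLN_Xcr1++, against 1370 in SPL_Xcr1Cre+ and 1260 in SPL_Xcr1++. H2-Ob and H2-Oa, the chains of a molecule that restrains peptide loading, had log2 differences of -3.67 and -2.55 for Xcr1Cre+ and -3.64 and -2.41 for Xcr1++. Cd74, the invariant chain that Ctss cuts, averaged 8940 in SDLN_Xcr1Cre+ and 8730 in SDLN_Xcr1++, against 12600 in SPL_Xcr1Cre+ and 12300 in SPL_Xcr1++, with log2 differences of -0.49 under each label (limma adjusted p = 0.000789 and 0.000798). Cd74 thus differed in the opposite direction to Ctss.

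The NADPH oxidase NOX2, which in dendritic cells is known to keep phagosomes from acidifying, was measured through 5 genes. For Xcr1Cre+ 1 was higher and 3 lower, and for Xcr1++ 1 was higher and 2 lower. Cyba, the small membrane subunit, was higher by 0.53 for Xcr1Cre+ and 0.55 for Xcr1++. Ncf4 and Rac2, which act on the cytosolic side, had -2.67 and -2.35 for Xcr1Cre+ and -2.73 and -2.30 for Xcr1++. Cybb, the catalytic subunit, had -0.49 for Xcr1Cre+, at mean intensities of 46.3 in SDLN_Xcr1Cre+ and 64.6 in SPL_Xcr1Cre+, at about the background. Between the genotype labels, 0 genes of any of these lists were called in either tissue.

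The genes most like Lgmn and Ctsc, the members with the largest rise and the largest fall in the mean of both labels, were found by Pearson's r of log2 values over the 12 arrays. Lgmn was followed most closely by Nudt13 (0.995), Gm9861 (0.994) and Tapbpl (0.994), and Ctsc by Pwp1 (0.991), Tm2d2 (0.988) and Nifk (0.987). Tapbpl encodes TAPBPR, a peptide editor of class I molecules, and averaged 2400 in SDLN_Xcr1Cre+ and 2750 in SDLN_Xcr1++, against 661 in SPL_Xcr1Cre+ and 689 in SPL_Xcr1++. The tissue difference carries most of the variance of these genes, and r takes no account of its size: the mean of the 2 tissue log2 differences was 0.93 for Nudt13, 2.96 for Gm9861 and 1.91 for Tapbpl, against 1.47 for Lgmn.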

How the data were processed

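The authors deposited 1 intensity per probe set and array; per the submitters' processing notes it came from Affymetrix Expression Console and its RMA method, of unstated version. The values of 8.23 to 20398 were read as linear intensities, and log2 was taken here. RMA quantile-normalizes the arrays, so a shift shared by most genes cannot be seen. Of 28853 probe sets, 21789 carried a single gene symbol, and the brightest per gene gave 19938 genes. A linear model with 4 group means over 12 arrays was fitted to every gene with limma 3.58.1 in R 4.3.3 (package data.table, version 1.17.8) using eBayes with a trend, two-sided tests, Benjamini-Hochberg adjustment over all genes and a call at an adjusted p under 0.05. The script was tested on simulated data. Motifs were searched and plots drawn in Python 3.11.15 (matplotlib 3.10.9). Precision is limited by having 3 arrays per group. The members and lists were chosen with earlier results of these data known. Named genes were the members, Cd40 and Xcr1, from each other list up to 3 called genes each way with the largest mean tissue difference, and the 3 genes most like the extreme members; all further genes named, such as Cst3, Tfeb, Tfe3, Cd74 and the list genes given as being at background, were chosen after their values were seen.

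Replicate numbers 1 to 3 recur in each group. Deviations from group means correlated between arrays of the same number at 0.573 to 0.729, 0.309 to 0.449 and 0.293 to 0.466 for numbers 1, 2 and 3. Over the 36 pairs of arrays with different numbers the range was -0.633 to 0.557, which reaches above the values for numbers 2 and 3. All same-number values were above 0.1, and on that rule the numbers were taken to pair the samples in the block alternatives. The main fit had no block, so its p-values and those of the unblocked refits do not use this pairing. Some arrays of different numbers pass it too, so pairing is an assumption, least secure for numbers 2 and 3. Blocked values stand beside results whose call they change and beside members that lost a tissue call in another refit. Alternatives were the block, leaving out each array or each replicate number, only the groups compared, repeated quantile normalization, median centring, no trend, array weights, the mean of probe sets, a background filter and an adjusted p under 0.01; 2 more were added after seeing the data.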

Additional observations from a re-analysis of the deposited data

How the results depend on the processing

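Directions of called differences did not change under any alternative: over 1210 recomputed member differences the sign changed in 62, none of them called in the main analysis. At an adjusted p under 0.05, Lgmn, Ctsh, Ctsc and Ctsa were called under both labels in every refit, whereas Ctsb, Ctsz, Ctss, Ctsd and Ifi30 each lost a tissue call in at least 1. The tissue count of members without replicate 2 arrays was 5 for Xcr1Cre+ and 5 for Xcr1++, over 3081 and 3093 genes called; without replicate 3 arrays it was 5 and 4, over 3094 and 2865 genes. Leaving out single arrays gave 6 to 9 members under each label. Array weights called 8933 genes for Xcr1Cre+ and 9020 for Xcr1++ between tissues, 51 between labels in spleen, 2 in lymph node and 3 for the difference of effects, with 0 members among the last 3. The replicate block gave 9 and 9 members and 8170 and 7178 genes between tissues for Xcr1Cre+ and Xcr1++, moved only Ctsb for Xcr1Cre+ across the threshold, and changed no other member's call; without the replicate 3 arrays it called 1 gene between labels in lymph node, no member. At an adjusted p under 0.01, 6 members passed in each comparison. The cause of these shifts was not tested. Fits without the replicate 1, 2 or 3 arrays all kept the same number of arrays. Ctsl and Ctsd lie nearer to the background than the other members. The SD within groups on the log2 scale was 0.36 for Ctsl, the widest, and 0.22 for Ctsd, against 0.24 for Ctsb and 0.11 for Ctss. The part of the background in these spreads was not tested.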
